A study of Drosophila melanogaster with 12 samples.

Results

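The interaction between diet and genotype in the larval fat body of Drosophila melanogaster is described here, gene by gene and over gene families. It asks whether the difference between larvae carrying a knockdown construct against the insulin receptor gene and control larvae was the same on 0.7 M as on 0.15 M sucrose. All 12 libraries of the study entered it, and every gene was a member: the counts sufficed for a test in 8662 of 15222 genes. The 4 groups, with 3 libraries each, were larvae labelled InRi on 0.7 M sucrose, control larvae on 0.7 M sucrose, larvae labelled InRi on 0.15 M sucrose and control larvae on 0.15 M sucrose. Every larva, control included, had a mother from a stock with UAS-Dcr2, which strengthens RNA interference, and r4-GAL4, a driver active in the fat body. The father came from VDRC stock 992, a single line with UAS-InRi, for the InRi groups and from VDRC w1118 stock 60000 for the control groups. All animals were females at the wandering stage of the third instar, raised at 25 °C, and RNA was sequenced after removal of ribosomal RNA. Whether the 3 libraries of a group came from separate cultures is not in the labels. A p-value therefore covers only the spread among the libraries, which may be technical.

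In insects the fat body combines the tasks of liver and adipose tissue. It stores fat and glycogen, secretes the serum proteins of the haemolymph and makes the antimicrobial peptides of the humoral immune response. Insulin signalling in this organ promotes growth and storage, and a diet rich in sucrose makes fly larvae hyperglycaemic and resistant to insulin. An interaction is the quantity that tells an effect of the construct common to both diets from one that depends on the diet.

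For each gene the difference between libraries labelled InRi and control was taken as a log2 ratio on each diet, and the interaction is the 0.7 M value minus the 0.15 M value. A positive interaction means that the ratio of InRi over control was higher on 0.7 M sucrose, and a negative one that it was lower there. Levels are in CPM, the count of a gene relative to the scaled total of its library, and are listed for replicates 1, 2 and 3 in that order.

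Library totals were 872755 to 7114144 counts, so that 3 counts correspond to 0.423 to 3.27 CPM in a single library. Control 0.15 M replicate 2 stood apart from the other 11. Only 0.0451% of its counts lay in genes of the mitochondrial genome, against 0.776% to 6.67% elsewhere, and it detected 7628 genes, against 9214 to 11312. Its rank correlation with other libraries over the tested genes was 0.676 to 0.774, against 0.859 to 0.974 among the other 11. Each result is therefore given for all 12 libraries and for the 11 without it, where 8870 genes were tested. InR, the target of the construct, stood at 109, 163 and 148 CPM under the InRi label, against 56.4, 45.4 and 55.5 CPM in control, on 0.7 M sucrose. On 0.15 M sucrose InR stood at 151, 133 and 116 CPM under the InRi label, against 61.1, 26.04 and 43.1 CPM in control. It was thus higher and not lower under the InRi label on both diets, which goes against that label. Reads from the construct's own InR sequence, where counted to the gene, cannot be told apart from InR transcripts in a table of counts per gene, so the levels do not show whether InR was knocked down. Every direction below is stated for libraries labelled InRi. The interaction of InR itself was -0.18 (log2, SE 0.41; edgeR quasi-likelihood test, adjusted p = 0.957) in 12 libraries and 0.11 (SE 0.32, adjusted p = 0.949) in 11.

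With all 12 libraries, edgeR's quasi-likelihood test called 0 of 8662 genes (0%) at a Benjamini-Hochberg adjusted p under 0.05, and the smallest adjusted p was 0.339. The unadjusted p was under 0.05 for 456 genes (5.26%), 246 (2.84%) with a positive and 210 (2.42%) with a negative interaction. Without control 0.15 M replicate 2 the same test called 1 of 8870 genes (0.0113%), Obp99a, with a negative interaction. Unadjusted p was under 0.05 for 839 genes (9.46%), 503 (5.67%) positive and 336 (3.79%) negative. DESeq2 called 17 of 8447 genes (0.201%) in 12 libraries, 10 (0.118%) positive and 7 (0.0829%) negative. In 11 libraries it called 43 of 8952 genes (0.48%), 25 (0.279%) positive and 18 (0.201%) negative, and 15 genes were called in both. Those 15 were Lsp1alpha, CG1208, CG42500, CG6839, Ncc69, kcc, CG34305, SIK2, CG7924, Sap-r, CG5391, CG5171, ETHR, CG13606 and CG14569. Of the other genes described below, DESeq2 called sad in 12 libraries alone and Obp99a, Lcp1, Lcp2, Amy-d, ClC-c, Cpr78E, RpL28, IM2 and CG10413 in 11 alone. limma-voom with a quality weight per library called 4 genes in 12 libraries (Obp99a, Lsp1alpha, CG42500 and kcc) and 1 in 11 (Obp99a). In the quasi-likelihood fit the median standard error of an interaction was 0.55 log2 units with all 12 libraries and 0.38 with 11. In simulated counts the test recovered 1% of 2-fold and 28% of 4-fold interactions with 12 libraries, and 7% and 69% with 11. The simulation gave each gene the same spread in every library, so it did not copy how control 0.15 M replicate 2 stood apart. Its changed genes had a mean of at least 5 CPM, so the shares do not cover lower genes.

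**Figure D1:**
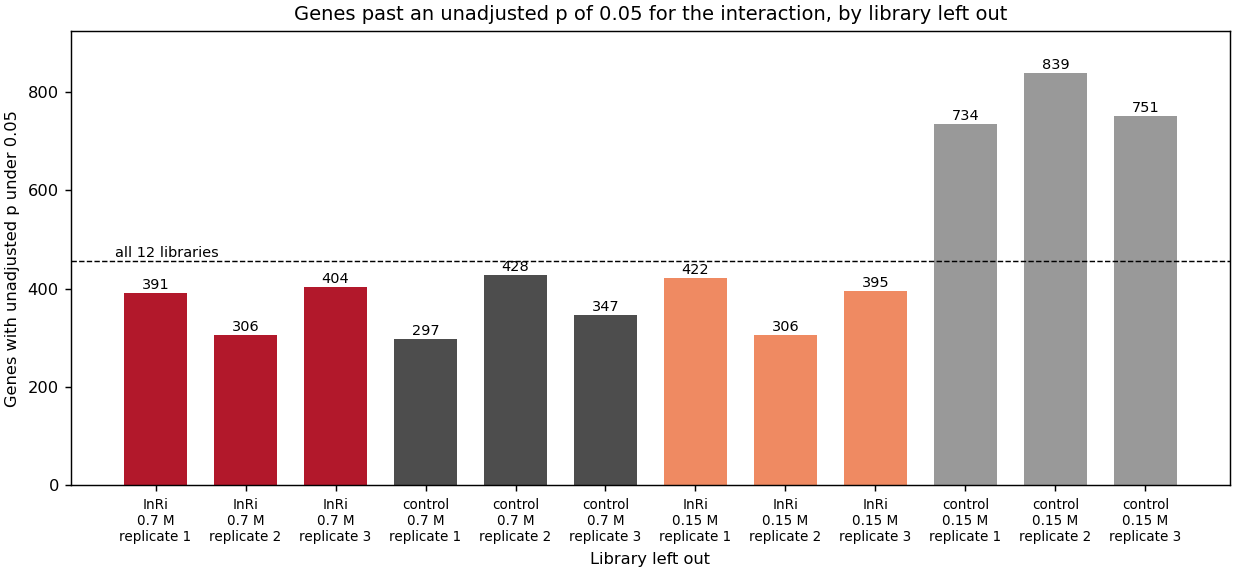
Number of genes with an unadjusted p under 0.05 for the interaction (edgeR) after leaving out the library named on the horizontal axis, with the count for all 12 libraries (456) as a dashed line. The count was 734 to 839 after leaving out any control library on 0.15 M sucrose and 297 to 428 after leaving out any other library.

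Of the 456 genes in 12 libraries and the 839 in 11, 376 were common to both fits, or 82.5% of the 12-library genes and 44.8% of the 11-library genes, all with the same sign. Among the 456, the InRi over control differences had opposite signs on 0.7 M and 0.15 M sucrose for 302 genes. They had the same sign and a larger size on 0.7 M for 118, and the same sign and a larger size on 0.15 M for 36. Among the 839 those numbers were 462, 317 and 60. Signs were opposite for 33.4% of all genes tested in 12 libraries and for 29.95% in 11. Choosing genes by a small p of the interaction favours opposite signs, so these counts are a description only. Over all genes tested, the differences on 0.7 M and on 0.15 M, which share no library, correlated with a Pearson r of 0.615 and a Spearman rho of 0.509 in 12 libraries and of 0.652 and 0.548 in 11. These coefficients run across genes, which are not independent replicates and share each library's depth. For single genes it is also stated whether the 3 libraries labelled InRi lay apart from the 3 controls. Of the 8662 genes, 18.5% lay wholly above control on 0.7 M and 13.4% on 0.15 M sucrose, and 16.5% wholly below on 0.7 M and 9.33% on 0.15 M.

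**Figure D2:**
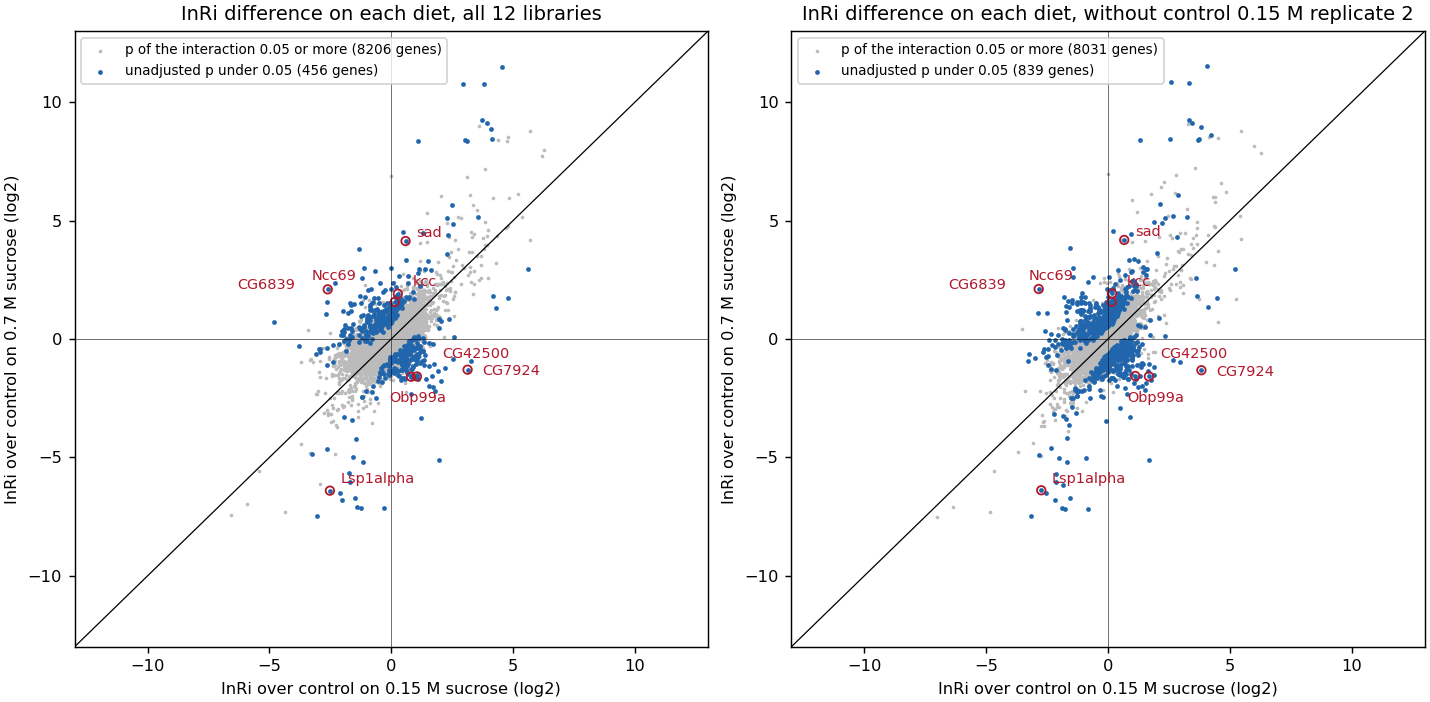
Each point is a gene, with the log2 ratio of libraries labelled InRi over control on 0.15 M sucrose on the horizontal and on 0.7 M sucrose on the vertical axis, for all 12 libraries (left) and without control 0.15 M replicate 2 (right). Points on the diagonal have no interaction, and blue points have an unadjusted p under 0.05, 456 at left and 839 at right. Red circles mark genes named in the text.

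Obp99a, an odorant-binding protein gene whose family carries small hydrophobic ligands, gave the only call of edgeR's quasi-likelihood test. Obp99a was at 38.95, 46.9 and 36.95 CPM in libraries labelled InRi and at 125, 149 and 95.8 CPM in control on 0.7 M sucrose. Obp99a on 0.15 M sucrose was at 241, 258 and 413 CPM in libraries labelled InRi and at 72.2, 336 and 115 CPM in control. Libraries labelled InRi were all below control on 0.7 M sucrose, and on 0.15 M sucrose they were above control replicates 1 and 3, while control replicate 2, the highest of its group, lay among them. The interaction was -2.40 (log2, SE 0.66; edgeR quasi-likelihood test, adjusted p = 0.845) in 12 libraries and -3.26 (SE 0.40, 95% interval -4.12 to -2.40, adjusted p = 0.0117) in 11. On the log2 scale its difference was -1.58 on 0.7 M and 1.68 on 0.15 M sucrose in the 11 libraries. When 1 further library was left out of the 11, edgeR's adjusted p for Obp99a stayed under 0.05 in 7 fits. It was 0.0614 to 0.0969 in the other 4, which lacked InRi 0.7 M replicate 1, InRi 0.7 M replicate 3, control 0.7 M replicate 1 or control 0.15 M replicate 1. Of the 51 genes of this family in the table, 10 held enough counts, and 1 of these (10%) was negative at an unadjusted p under 0.05 in 12 libraries and 2 (20%) in 11. Over all genes the negative shares were 2.42% and 3.79%.

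The cotransporter genes kcc and Ncc69 and the kinase gene SIK2 had positive interactions that stayed short of the adjusted threshold in edgeR's test. kcc encodes a potassium-chloride cotransporter, Ncc69 a sodium-potassium-chloride cotransporter and SIK2 a salt-inducible kinase. kcc was at 63.9, 90.1 and 60.6 CPM in libraries labelled InRi and at 18.9, 20.8 and 16.3 CPM in control on 0.7 M sucrose. kcc on 0.15 M sucrose was at 25.1, 25.9 and 27.4 CPM in libraries labelled InRi and at 25.4, 18.6 and 20.5 CPM in control. All 3 libraries labelled InRi on 0.7 M sucrose lay above the other 9, and on 0.15 M the groups overlapped. Ncc69 was at 108, 115 and 99.7 CPM in libraries labelled InRi and at 37.1, 40.3 and 30.5 CPM in control on 0.7 M sucrose. Ncc69 on 0.15 M sucrose was at 58.1, 49.7 and 40.96 CPM in libraries labelled InRi and at 45.5, 46.9 and 42.5 CPM in control. The same order held for Ncc69. The interaction of kcc was 1.64 (log2, SE 0.33; edgeR quasi-likelihood test, adjusted p = 0.484) in 12 libraries and 1.76 (SE 0.29, adjusted p = 0.05404) in 11. That of Ncc69 was 1.42 (SE 0.30, edgeR's adjusted p = 0.484) in 12 libraries and 1.42 (SE 0.26, adjusted p = 0.0882) in 11. Neither passed the threshold in edgeR's quasi-likelihood test, while DESeq2 called both genes, and SIK2, in both sets of libraries.

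SIK2 was at 43.4, 40.8 and 41.3 CPM in libraries labelled InRi and at 20.3, 16.4 and 25.05 CPM in control on 0.7 M sucrose. SIK2 on 0.15 M sucrose was at 21.2, 17.02 and 15.1 CPM in libraries labelled InRi and at 24.5, 42.4 and 22.5 CPM in control. All libraries labelled InRi lay above control on 0.7 M and below control on 0.15 M sucrose. The interaction of SIK2 was 1.78 (log2, SE 0.40; edgeR quasi-likelihood test, adjusted p = 0.484) in 12 libraries and 1.53 (SE 0.29, adjusted p = 0.0986) in 11. Because 2 cotransporters were among the genes with the smallest p, the other members of their family and the chloride channels of the ClC family were listed after these values were seen. Of the other cotransporters, CG10413 had interactions of 0.84 in all 12 libraries and 1.26 in 11, CG12773 of 1.14 in all 12 libraries and 0.49 in 11 and CG31547 of -0.67 in all 12 libraries and -0.23 in 11. CG10413 was at 117, 136 and 103 CPM in libraries labelled InRi and at 55.8, 81.97 and 57.7 CPM in control on 0.7 M sucrose. CG10413 on 0.15 M sucrose was at 60.3, 53.2 and 49.9 CPM in libraries labelled InRi and at 61.3, 18.6 and 78.8 CPM in control. Its 3 libraries labelled InRi on 0.7 M sucrose lay above the other 9. ClC-c, a chloride channel gene, was at 91.95, 112 and 86.9 CPM in libraries labelled InRi and at 31.7, 43.4 and 41.4 CPM in control on 0.7 M sucrose. ClC-c on 0.15 M sucrose was at 45.9, 37.01 and 42.3 CPM in libraries labelled InRi and at 49.1, 27.5 and 35.7 CPM in control. ClC-c followed the same order. Its interaction was 1.18 (unadjusted p = 0.00553, edgeR) in 12 libraries and 1.40 (unadjusted p = 0.000239, edgeR) in 11, while ClC-a had 0.89 in all 12 libraries and 0.88 in 11. Of the 5 cotransporters kcc, Ncc69 and CG12773 were positive at an unadjusted p under 0.05 in 12 libraries, and kcc, Ncc69 and CG10413 in 11. CG12773 had its highest value, 238 CPM, in control 0.15 M replicate 2. Of the 3 channels 2 were positive in 12 libraries and 3 in 11. Over all genes the positive shares were 2.84% in 12 and 5.67% in 11. As the lists were drawn up after the first members were seen, these counts are a description only.

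**Figure D3:**
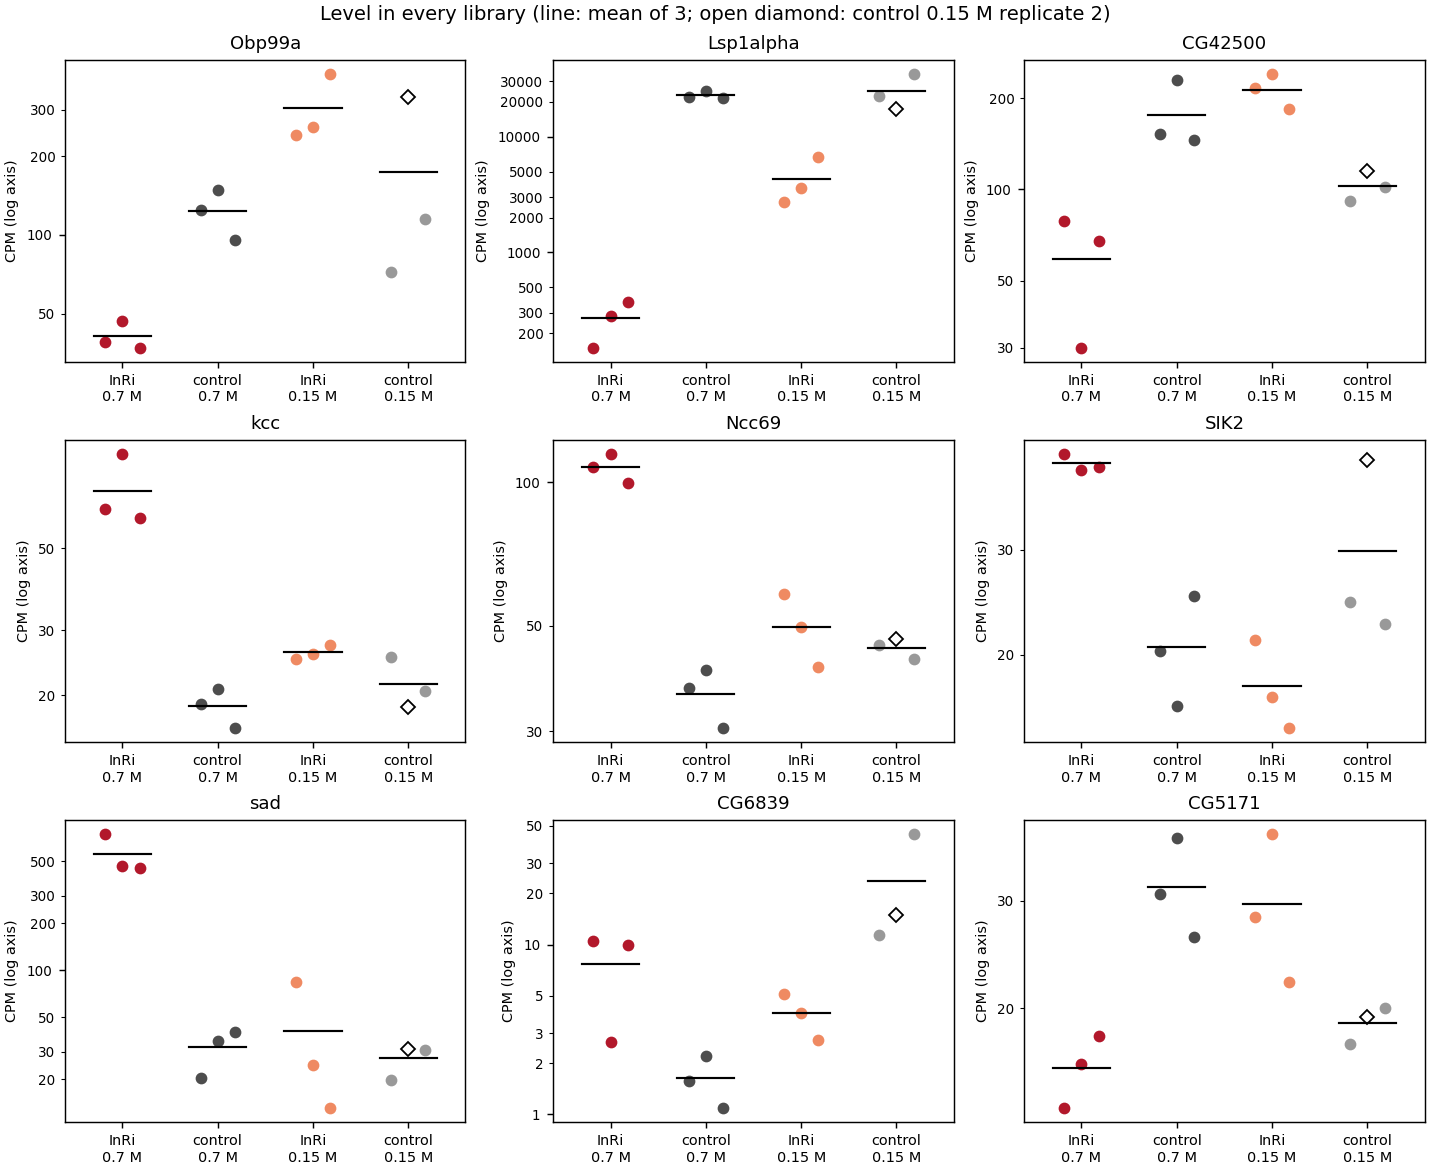
Level in CPM (log axes, each with its own range) of 9 genes in every library, by group, with the mean of 3 as a line and control 0.15 M replicate 2 as an open diamond. kcc, Ncc69 and sad are highest in all 3 libraries labelled InRi on 0.7 M sucrose, Lsp1alpha and Obp99a are lowest there, and SIK2, CG6839, CG42500 and CG5171 have opposed differences on 0.7 M and 0.15 M sucrose.

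Lsp1alpha encodes a subunit of the larval serum proteins, hexamers that the fat body secretes as an amino acid store for metamorphosis. Lsp1alpha was at 149, 285 and 375 CPM in libraries labelled InRi and at 22139, 25066 and 21422 CPM in control on 0.7 M sucrose. Lsp1alpha on 0.15 M sucrose was at 2729.5, 3633 and 6679.9 CPM in libraries labelled InRi and at 22381, 17395 and 34972 CPM in control. Libraries labelled InRi were below control on both diets, and those on 0.7 M sucrose were below all others. Its log2 ratio of InRi over control was -6.41 on 0.7 M and -2.52 on 0.15 M sucrose in 12 libraries. The interaction was -3.89 (SE 0.69; edgeR quasi-likelihood test, adjusted p = 0.339) in 12 libraries and -3.65 (SE 0.57, adjusted p = 0.05404) in 11. With DESeq2 the adjusted p for Lsp1alpha was 3.92e-07 in 12 libraries and 1.35e-08 in 11. In these bulk samples fewer cells that make a transcript and less of it per cell cannot be told apart.

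The other 6 genes of the larval serum and fat body protein list had interactions of -0.60 to 0.78 in 12 libraries and -0.67 to 0.81 in 11, none with an unadjusted p under 0.05. Lsp1beta and Lsp1gamma, the 2 genes for the sister subunits, were looked at after Lsp1alpha was seen. Lsp1beta was at 46197, 28868 and 20222 CPM in libraries labelled InRi and at 42256, 43695 and 50992 CPM in control on 0.7 M sucrose. Lsp1beta on 0.15 M sucrose was at 23020.5, 24651 and 47501 CPM in libraries labelled InRi and at 32633, 39531 and 41991 CPM in control. Libraries labelled InRi overlapped control on both diets for Lsp1beta. Lsp1gamma was at 61461, 65783 and 38496 CPM in libraries labelled InRi and at 28024, 35671 and 31281 CPM in control on 0.7 M sucrose. Lsp1gamma on 0.15 M sucrose was at 65088, 29840.1 and 82629 CPM in libraries labelled InRi and at 22137, 6021 and 38902 CPM in control. The groups separated for Lsp1gamma on 0.7 M, with libraries labelled InRi higher, and overlapped on 0.15 M. Their interactions were -0.26 in all 12 libraries and -0.25 in 11 for Lsp1beta and -0.60 in all 12 libraries and -0.11 in 11 for Lsp1gamma, with standard errors of 0.50 and 0.52 in 11 libraries.

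Opposed differences on 0.7 M and 0.15 M sucrose were seen for 8 of the 20 genes with the smallest p that the naming rule gave, 10 per direction. Libraries labelled InRi were all above control on 0.7 M and all below on 0.15 M sucrose for CG6839, SIK2 and ETHR, and the reverse held for CG42500, CG34305, CG5171, CG5391 and CG12075. Over all genes tested, the first pattern was shown by 12 genes (0.139%) and the second by 25 (0.289%). The naming rule used the interaction itself, so nothing is read from how often its genes show these patterns.

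CG6839 was at 10.5, 2.66 and 9.94 CPM in libraries labelled InRi and at 1.58, 2.22 and 1.09 CPM in control on 0.7 M sucrose. CG6839 on 0.15 M sucrose was at 5.08, 3.97 and 2.74 CPM in libraries labelled InRi and at 11.4, 14.9 and 44.8 CPM in control. Its highest value, in control 0.15 M replicate 3, lay far above those on 0.7 M sucrose. The interaction of CG6839 was 4.70 (log2, SE 0.89; edgeR quasi-likelihood test, adjusted p = 0.339) in 12 libraries and 4.96 (SE 0.84, adjusted p = 0.0568) in 11. ETHR, the receptor for ecdysis triggering hormone, was at 3.91, 6.77 and 8.38 CPM in libraries labelled InRi and at 3.55, 1.99 and 3.27 CPM in control on 0.7 M sucrose. ETHR on 0.15 M sucrose was at 2.96, 1.16 and 1.37 CPM in libraries labelled InRi and at 7.63, 7.44 and 4.57 CPM in control. Its levels were low in all groups, and its interaction was 2.90 (SE 0.66) in 12 libraries and 2.85 (SE 0.64) in 11.

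CG42500 was at 78.8, 29.97 and 67.7 CPM in libraries labelled InRi and at 152, 229.7 and 146 CPM in control on 0.7 M sucrose. CG42500 on 0.15 M sucrose was at 216, 241 and 184 CPM in libraries labelled InRi and at 91.6, 115 and 102 CPM in control. Here libraries labelled InRi were below control on 0.7 M and above it on 0.15 M sucrose, control 0.15 M replicate 2 included. The interaction of CG42500 was -2.64 (log2, SE 0.47; edgeR quasi-likelihood test, adjusted p = 0.339) in 12 libraries and -2.69 (SE 0.45, adjusted p = 0.0568) in 11. CG5171, a gene for a trehalose phosphatase that makes the blood sugar trehalose, was at 13.7, 16.2 and 18.01 CPM in libraries labelled InRi and at 30.8, 38.1 and 26.1 CPM in control on 0.7 M sucrose. CG5171 on 0.15 M sucrose was at 28.2, 38.7 and 22.1 CPM in libraries labelled InRi and at 17.4, 19.3 and 19.98 CPM in control. The ranges of CG5171 thus changed places between the diets, and its interaction was -1.66 (SE 0.37) in 12 libraries and -1.65 (SE 0.33) in 11.

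CG34305 was at 2.85, 2.42 and 2.79 CPM in libraries labelled InRi and at 6.31, 10.2 and 7.62 CPM in control on 0.7 M sucrose. CG34305 on 0.15 M sucrose was at 6.35, 10.1 and 6.24 CPM in libraries labelled InRi and at 3.27, 0 and 2.57 CPM in control. Libraries labelled InRi lay below control on 0.7 M and above control on 0.15 M sucrose. For CG34305 the interaction was -3.27 (SE 0.68) in 12 libraries and -2.89 (SE 0.46) in 11, with edgeR's adjusted p = 0.05404 in the second. CG5391 was at 4.45, 2.18 and 7.45 CPM in libraries labelled InRi and at 11.4, 42.1 and 14.2 CPM in control on 0.7 M sucrose. CG5391 on 0.15 M sucrose was at 12.1, 19.7 and 14.8 CPM in libraries labelled InRi and at 8.996, 8.93 and 8.56 CPM in control. CG5391 was ordered like CG34305. CG12075 had ranges of 6.28 to 9.25 CPM in libraries labelled InRi and 9.801 to 18.6 CPM in control on 0.7 M sucrose, and of 12.8 to 19.2 CPM in libraries labelled InRi and 10.4 to 12.3 CPM in control on 0.15 M sucrose. The interactions were -3.15 in all 12 libraries and -3.14 in 11 for CG5391 and -1.55 in all 12 libraries and -1.48 in 11 for CG12075. CG7924 was at 20.6, 9.18 and 10.9 CPM in libraries labelled InRi and at 59.5, 21.5 and 16.3 CPM in control on 0.7 M sucrose. CG7924 on 0.15 M sucrose was at 103, 64.8 and 22.1 CPM in libraries labelled InRi and at 2.73, 15.6 and 5.99 CPM in control. CG7924 overlapped between the groups on 0.7 M and was higher in libraries labelled InRi on 0.15 M sucrose, with an interaction of -4.43 (SE 0.98) in 12 libraries and -5.15 (SE 0.94) in 11.

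The remaining genes of the positive side were high in libraries labelled InRi on 0.7 M sucrose, where all 3 lay above control. sad, a P450 enzyme of the last steps of ecdysone synthesis, was at 751, 465 and 451 CPM in libraries labelled InRi and at 20.5, 35.4 and 40.3 CPM in control on 0.7 M sucrose. sad on 0.15 M sucrose was at 84.7, 24.6 and 13.1 CPM in libraries labelled InRi and at 19.9, 31.2 and 30.8 CPM in control. On 0.15 M sucrose its groups overlapped, with the highest value in InRi replicate 1. The interaction of sad was 3.55 (log2, SE 0.80; edgeR quasi-likelihood test, adjusted p = 0.484) in 12 libraries and 3.52 (SE 0.79, adjusted p = 0.174) in 11. synaptogyrin, a membrane protein of secretory vesicles, was at 18.1, 20.1 and 13.97 CPM in libraries labelled InRi and at 2.17, 1.33 and 1.09 CPM in control on 0.7 M sucrose. synaptogyrin on 0.15 M sucrose was at 1.41, 2.64 and 2.28 CPM in libraries labelled InRi and at 0.818, 2.98 and 1.14 CPM in control. CG14569 ranged over 9.78 to 25.1 CPM in libraries labelled InRi and 0 to 3.54 CPM in control on 0.7 M sucrose, and over 0.305 to 0.706 CPM in libraries labelled InRi and 0 to 2.18 CPM in control on 0.15 M sucrose. For sad, synaptogyrin and CG14569 the 3 libraries labelled InRi on 0.7 M sucrose lay above the other 9. CG5191 was at 35.9, 44.7 and 27.6 CPM in libraries labelled InRi and 14.6, 14.8 and 15.2 CPM in control on 0.7 M sucrose. CG5191 on 0.15 M sucrose was at 12.4 to 15.7 CPM in libraries labelled InRi and 13.4 to 20.8 CPM in control. CG8299 was at 13.9, 14.7 and 17.1 CPM in libraries labelled InRi and 3.94, 3.32 and 3.27 CPM in control on 0.7 M sucrose. CG8299 on 0.15 M sucrose was at 5.08, 4.46 and 3.502 CPM in libraries labelled InRi and 5.45, 20.8 and 2.57 CPM in control, with its highest value in control 0.15 M replicate 2. Interactions were 2.74 in all 12 libraries and 2.31 in 11 for synaptogyrin, 4.11 in all 12 libraries and 4.42 in 11 for CG14569, 1.49 in all 12 libraries and 1.38 in 11 for CG5191 and 3.02 in all 12 libraries and 1.999 in 11 for CG8299. In the InRi 0.15 M libraries 3 counts correspond to 0.423 to 0.496 CPM. The size of the CG14569 interaction thus rests on few counts.

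On the negative side CG15369 was at 19.9, 43.3 and 38.5 CPM in libraries labelled InRi and at 486, 1055 and 355 CPM in control on 0.7 M sucrose. CG15369 on 0.15 M sucrose was at 131, 183 and 413 CPM in libraries labelled InRi and at 571, 481 and 954 CPM in control. It was lower in libraries labelled InRi on both diets, like Lsp1alpha, with an interaction of -2.76 (SE 0.73) in 12 libraries and -2.53 (SE 0.71) in 11. CG5656, in a later annotation the alkaline phosphatase gene Alp1, ranged over 4.11 to 9.78 CPM in libraries labelled InRi and 18.5 to 19.9 CPM in control on 0.7 M sucrose, and over 18.5 to 22.2 CPM in libraries labelled InRi and 10.4 to 18.6 CPM in control on 0.15 M sucrose. Its interaction was -1.75 in all 12 libraries and -1.55 in 11. CR40621 was at 3.56, 1.93 and 4.66 CPM in libraries labelled InRi and at 85.6, 254.6 and 1.09 CPM in control on 0.7 M sucrose. CR40621 on 0.15 M sucrose was at 1.98, 5.12 and 31.2 CPM in libraries labelled InRi and at 4.09, 0.744 and 3.71 CPM in control. Its groups overlapped on both diets, and its highest levels lay in control 0.7 M replicates 1 and 2, with an interaction of -7.09 in all 12 libraries and -6.80 in 11.

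svp, a nuclear receptor gene, was at 163, 221 and 147 CPM in libraries labelled InRi and at 77.9, 63.8 and 87.1 CPM in control on 0.7 M sucrose. svp on 0.15 M sucrose was at 138, 72.5 and 117 CPM in libraries labelled InRi and at 83.97, 141 and 71.1 CPM in control. The groups separated on 0.7 M and overlapped on 0.15 M, with an interaction of 1.07 (SE 0.45; edgeR quasi-likelihood test, unadjusted p = 0.0347, adjusted p = 0.895) in 12 libraries and 0.77 (SE 0.37, unadjusted p = 0.0577, adjusted p = 0.543) in 11. It was the 1 gene of 15 tested (6.67%) in the nuclear receptor list with an unadjusted p under 0.05 in 12 libraries, and 0 of 15 had one in 11. Over all genes the shares were 5.26% and 9.46%, so the list did not stand out.

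Immune genes that the Toll pathway controls gave large fitted interactions, and those of the Bomanins depended strongly on 1 control library. Toll signalling turns recognition of microbes into transcription of antimicrobial peptides in the fat body, among them the Bomanins, short secreted peptides. The 12 Bomanins together summed to 2906, 3188 and 1972 CPM in libraries labelled InRi and to 10.1, 14.2 and 13.1 CPM in control on 0.7 M sucrose. On 0.15 M sucrose they summed to 2591, 899 and 1656 CPM in libraries labelled InRi and to 227, 0.744 and 2.28 CPM in control. Libraries labelled InRi were far above control on both diets, and among the control libraries on 0.15 M sucrose replicate 1 stood far above replicates 2 and 3.

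Over all genes 2.84% were positive at an unadjusted p under 0.05 in 12 libraries and 5.67% in 11. Of the 11 Bomanins tested in 12 libraries 6 (54.5%) had an unadjusted p under 0.05, all positive, and of the 12 tested in 11 libraries 7 (58.3%), all positive. Their median interaction was 4.77 in 12 and 4.78 in 11 libraries, or 3.77 and 3.49 with the genes of a group at 0 counts set to 3 counts over that group, against -0.03 and 0.02 for all genes tested. When control 0.15 M replicate 1 was left out, these counts became 0 positive and 2 negative of 12 genes in the fit of the remaining 11 libraries, and 0 positive and 1 negative of 12 where replicate 2 was left out too, with medians at the bound of 1.41 and 1.88. The Bomanins are short, similar genes that lie close together, and how reads shared between them were counted is not given in the sources used here.

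Among single Bomanins, IM2 was at 369, 417 and 294 CPM in libraries labelled InRi and at 0.197, 0 and 0 CPM in control on 0.7 M sucrose. IM2 on 0.15 M sucrose was at 316, 145 and 214 CPM in libraries labelled InRi and at 25.6, 0 and 0.571 CPM in control. IM1, IM23 and CG15067 showed the same order, with 138 to 282, 38.8 to 57.5 and 233 to 300.1 CPM in libraries labelled InRi and 1, 0 and 5 counts in all 3 control libraries on 0.7 M sucrose. In control on 0.15 M sucrose replicate 1 held 30.8 CPM of IM1, 7.63 CPM of IM23 and 28.9 CPM of CG15067, while replicates 2 and 3 held at most 0.744 CPM of any of them. With so few counts in control no fold is given for these genes.

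IM4 and IM14, secreted peptides of the same response, followed them. IM4 was at 192, 253 and 116 CPM in libraries labelled InRi and at 0.591, 0 and 0 CPM in control on 0.7 M sucrose. IM4 on 0.15 M sucrose was at 153, 52.7 and 131 CPM in libraries labelled InRi and at 21.3, 2.23 and 0.285 CPM in control. Libraries labelled InRi lay above control on both diets, and replicate 1 held most of the control signal on 0.15 M. IM14 ranged over 73.3 to 126 CPM in libraries labelled InRi and 0 to 0.394 CPM in control on 0.7 M sucrose, and over 44.1 to 116 CPM in libraries labelled InRi and 0 to 11.2 CPM in control on 0.15 M sucrose. Drs, the gene of the antifungal peptide drosomycin, was at 3528, 5607 and 3042 CPM in libraries labelled InRi and at 49.5, 74.7 and 71.9 CPM in control on 0.7 M sucrose. Drs on 0.15 M sucrose was at 6433, 1709 and 4633 CPM in libraries labelled InRi and at 355, 291 and 63.1 CPM in control. Libraries labelled InRi lay above control on both diets. The interaction of Drs was 1.79 (SE 0.83; edgeR, unadjusted p = 0.0518) in 12 libraries and 1.66 (SE 0.80, unadjusted p = 0.057) in 11. Of the 7 genes of this list that were tested, 2 had an unadjusted p under 0.05, both positive, in either fit, and with control 0.15 M replicate 1 left out as well these became 0 and 1.

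**Figure D4:**
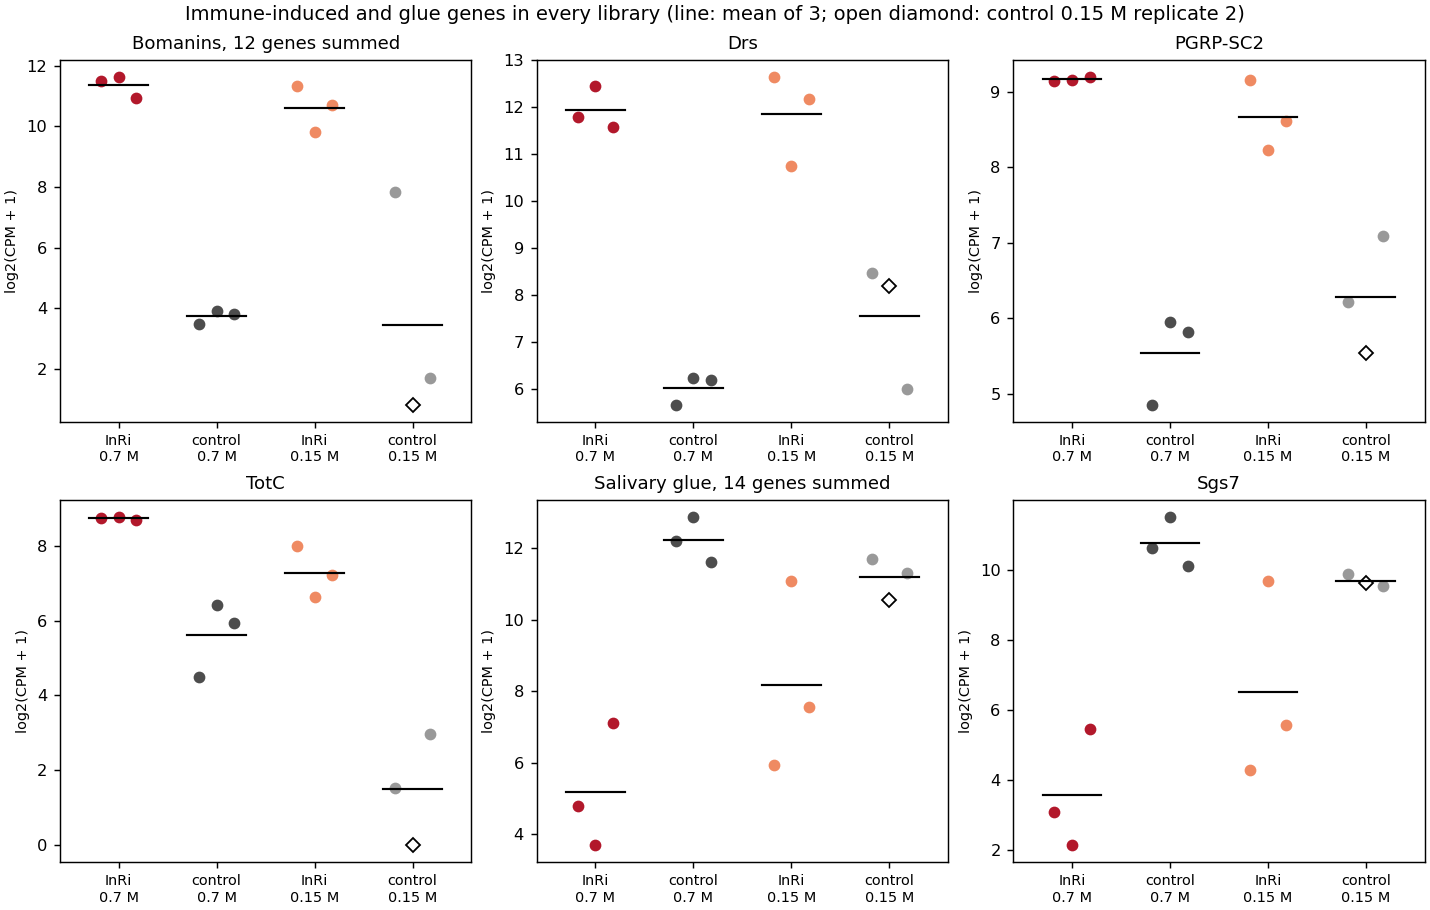
log2(CPM + 1) in every library of the summed Bomanins, Drs, PGRP-SC2, TotC, the summed salivary glue genes and Sgs7, with the mean of 3 as a line and control 0.15 M replicate 2 as an open diamond. In the Bomanin panel control 0.15 M replicate 1 stands above the other 2 control libraries on that diet, and in the glue panels InRi 0.15 M replicate 2 stands above the other 2 libraries labelled InRi on that diet.

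Upstream of these effectors, 3 of 22 Toll pathway genes tested (13.6%) had an unadjusted p under 0.05 in 12 libraries and 5 of 23 (21.7%) in 11, all positive. Over all genes the positive shares were 2.84% and 5.67%. nec encodes a serpin that restrains the protease cascade leading to Toll, grass one of its proteases, and Dif the transcription factor of the pathway. nec was at 93.7, 150.3 and 102 CPM in libraries labelled InRi and at 38.2, 49.6 and 38.1 CPM in control on 0.7 M sucrose. nec on 0.15 M sucrose was at 68.3, 43.8 and 106 CPM in libraries labelled InRi and at 88.6, 116 and 61.4 CPM in control. On 0.7 M sucrose libraries labelled InRi lay above control. Dif was at 32.2, 35.04 and 32.9 CPM in libraries labelled InRi and at 8.08, 11.7 and 9.801 CPM in control on 0.7 M sucrose. Dif on 0.15 M sucrose was at 33.7, 17.2 and 22.4 CPM in libraries labelled InRi and at 12.3, 17.9 and 14.8 CPM in control. Control 0.7 M libraries held the lowest Dif levels. grass ranged over 219 to 317 CPM in libraries labelled InRi and 83.2 to 138 CPM in control on 0.7 M sucrose, and over 81.01 to 135 CPM in libraries labelled InRi and 60.8 to 193 CPM in control on 0.15 M sucrose. For all 3 genes the groups separated on 0.7 M and overlapped on 0.15 M. Interactions were 1.73 in all 12 libraries and 1.53 in 11 for nec, 1.03 in all 12 libraries and 0.95 in 11 for Dif and 1.40 in all 12 libraries and 0.95 in 11 for grass. Leaving out single libraries gave 1 to 5 positive genes in this list, and the count was 1 when either control 0.7 M replicate 1 or InRi 0.15 M replicate 2 was missing.

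Peptidoglycan recognition proteins detect bacterial cell wall or cleave it. Of 15 tested, 2 were positive and 2 negative at an unadjusted p under 0.05 in 12 libraries, and 3 positive and 2 negative in 11. In either direction this was 26.7% and 33.3%, against 5.26% and 9.46% of all genes. PGRP-SC2, an amidase that degrades peptidoglycan, was at 566, 572 and 588 CPM in libraries labelled InRi and at 27.8, 60.7 and 55.5 CPM in control on 0.7 M sucrose. PGRP-SC2 on 0.15 M sucrose was at 570.5, 298 and 392 CPM in libraries labelled InRi and at 73.3, 45.4 and 135 CPM in control. It was above control in libraries labelled InRi on both diets. PGRP-LC, the receptor at the top of the Imd pathway, was at 29.9, 29 and 26.1 CPM in libraries labelled InRi and at 18.1, 12.6 and 18.5 CPM in control on 0.7 M sucrose. PGRP-LC on 0.15 M sucrose was at 17.1, 17.7 and 15.7 CPM in libraries labelled InRi and at 17.99, 15.6 and 16.6 CPM in control. It separated on 0.7 M sucrose and overlapped on 0.15 M. PGRP-SD, a secreted recognition protein, was at 24.4, 25.1 and 21.7 CPM in libraries labelled InRi and at 67.2, 111 and 63.2 CPM in control on 0.7 M sucrose. PGRP-SD on 0.15 M sucrose was at 35, 27.1 and 47.1 CPM in libraries labelled InRi and at 49.1, 43.9 and 64.2 CPM in control. It was below control in libraries labelled InRi on 0.7 M sucrose and overlapped on 0.15 M. Interactions were 1.29 in all 12 libraries and 1.63 in 11 for PGRP-SC2, 0.81 in all 12 libraries and 0.90 in 11 for PGRP-LC and -1.24 in all 12 libraries and -1.10 in 11 for PGRP-SD. Without InRi 0.7 M replicate 1, or without InRi 0.15 M replicate 3, no gene of this list was positive at an unadjusted p under 0.05 in the fit of the other 11 libraries. PGRP-SB2 held 2 counts in all 3 libraries labelled InRi and 318 in control on 0.7 M sucrose, and 182 counts in libraries labelled InRi and 233 in control on 0.15 M sucrose. None of the 6 antibacterial peptide genes of the Imd pathway that were tested had an unadjusted p under 0.05 in either fit, with interactions of -0.57 to 1.47 in 12 libraries and -0.31 to 1.85 in 11.

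Turandots are secreted stress proteins, and 2 of the 6 tested, TotB and TotC, were negative at an unadjusted p under 0.05 in either fit, and 1 of 6 in the 12-library fit without control 0.7 M replicate 2. The 2 genes were 33.3% of the list, against 2.42% of all genes negative in 12 libraries and 3.79% in 11. TotC was at 424, 437 and 409 CPM in libraries labelled InRi and at 21.7, 84.9 and 59.9 CPM in control on 0.7 M sucrose. TotC on 0.15 M sucrose was at 254.9, 98.3 and 147 CPM in libraries labelled InRi and at 1.91, 0 and 6.85 CPM in control. It was higher in libraries labelled InRi on both diets. TotB was at 40.7, 49.8 and 43.5 CPM in libraries labelled InRi and at 4.73, 24.4 and 10.9 CPM in control on 0.7 M sucrose. TotB on 0.15 M sucrose was at 58.4, 25.9 and 28.6 CPM in libraries labelled InRi and at 2.999, 0 and 0.285 CPM in control. TotB followed the same order, and for both genes the control libraries were higher on 0.7 M than on 0.15 M sucrose. Interactions were -2.68 in all 12 libraries and -2.26 in 11 for TotC and -3.06 in all 12 libraries and -2.72 in 11 for TotB. The other 4 had fitted interactions of -1.53 to 3.97 in 12 libraries and -1.22 to 4.34 in 11. Of the 6 tested, 1 was positive, and 2 had a group at 0 counts. The list's median was -1.08 in 12 libraries and -0.72 in 11, or -1.08 and -0.65 with genes that had a group at 0 counts at their bound. Turandot genes are similar to each other, so that reads shared between them leave single values uncertain.

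Salivary glue genes code for the glue that fixes the pupal case and are products of the salivary gland, not of the fat body. Of 10 tested in 12 libraries 7 (70%) were negative at an unadjusted p under 0.05, and 7 of 11 (63.6%) in 11 libraries. Over all genes the negative shares were 2.42% and 3.79%. Sgs7 was at 7.47, 3.38 and 43.2 CPM in libraries labelled InRi and at 1568, 2923 and 1109 CPM in control on 0.7 M sucrose. Sgs7 on 0.15 M sucrose was at 18.6, 819 and 46.6 CPM in libraries labelled InRi and at 947, 777 and 738 CPM in control. Libraries labelled InRi separated from control on 0.7 M sucrose, and on 0.15 M InRi replicate 2, the highest of its group, lay among the control libraries while replicates 1 and 3 lay below. Without InRi 0.15 M replicate 2 the number of negative genes at an unadjusted p under 0.05 was 0 of 11, or 2 of 11 where control 0.15 M replicate 2 was left out too, and the list's median interaction went to -1.63 in 11 libraries and -1.28 in 10, against -4.35 and -3.91 with it. The summed level of 10 salivary gland markers, 8 of them also on the glue list, moved the same way, at 141 to 218 CPM in libraries labelled InRi and 2803 to 5840.1 CPM in control on 0.7 M sucrose, and at 159 to 1804 CPM in libraries labelled InRi and 1436 to 2862 CPM in control on 0.15 M sucrose. None of those markers was at 0 in all libraries, and the part of salivary tissue in the samples was not tested. Sgs5 and Sgs4 had interactions of -6.82 in all 12 libraries and -6.37 in 11 and -3.90 in all 12 libraries and -3.56 in 11. Sgs1 held 2 counts in libraries labelled InRi and 295 in control on 0.7 M sucrose, and 27 counts in libraries labelled InRi and 293 in control on 0.15 M sucrose.

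Among other genes with almost no counts in 1 group, CG1208 was at 126, 88.9 and 92.5 CPM in libraries labelled InRi and at 0.197, 0.443 and 0 CPM in control on 0.7 M sucrose. CG1208 on 0.15 M sucrose was at 37.7, 7.44 and 3.198 CPM in libraries labelled InRi and at 8.72, 11.2 and 3.996 CPM in control. On 0.15 M sucrose its groups overlapped, and its unadjusted p in edgeR's quasi-likelihood test was 0.000132 in 12 libraries (adjusted p = 0.339) and 0.000331 in 11 (adjusted p = 0.162). CG14515 was at 38.1, 42.3 and 42.9 CPM in libraries labelled InRi and at 0, 0.222 and 0 CPM in control on 0.7 M sucrose. CG14515 on 0.15 M sucrose was at 15.4, 4.46 and 3.05 CPM in libraries labelled InRi and at 0.818, 2.23 and 0.285 CPM in control. CG6271 was low in all groups on 0.7 M, at 0 to 3.201 CPM in libraries labelled InRi and 0 to 0.222 CPM in control, and at 2.96 to 12.5 CPM in libraries labelled InRi and 11.2 to 33.1 CPM in control on 0.15 M sucrose. The other 6 negative genes of this kind that the rule gave had unadjusted p of 0.12 to 0.965 in edgeR's test of 12 libraries.

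Among enzymes that handle sugar, 4 of 11 maltase and amylase genes tested (36.4%) were positive at an unadjusted p under 0.05 in 12 libraries and 4 of 11 in 11, against 2.84% and 5.67% of all genes. Amy-d and Amy-p, which encode alpha-amylases, and the maltase genes Mal-A3 and Mal-A4 act mainly in the gut. Amy-d was at 4.62, 7.49 and 6.52 CPM in libraries labelled InRi and at 1.18, 2.66 and 3.27 CPM in control on 0.7 M sucrose. Amy-d on 0.15 M sucrose was at 5.65, 5.95 and 9.59 CPM in libraries labelled InRi and at 15.5, 2.98 and 14.6 CPM in control. Libraries labelled InRi separated from control on 0.7 M sucrose. Amy-p was at 1.96, 2.18 and 3.11 CPM in libraries labelled InRi and at 2.17, 1.33 and 4.36 CPM in control on 0.7 M sucrose. Amy-p on 0.15 M sucrose was at 3.105, 4.79 and 6.24 CPM in libraries labelled InRi and at 30.8, 6.695 and 15.98 CPM in control. Control replicates 1 and 3 on 0.15 M sucrose held the highest levels of both genes. Libraries labelled InRi on that diet lay below all 3 controls for Amy-p and overlapped replicate 2 for Amy-d. The pair are near-identical copies, so that the split of reads between them is uncertain. Interactions were 2.28 in all 12 libraries and 2.70 in 11 for Amy-d, 2.13 in all 12 libraries and 2.53 in 11 for Amy-p, 1.74 in all 12 libraries and 1.76 in 11 for Mal-A4 and 2.01 in all 12 libraries and 2.32 in 11 for Mal-A3. Without control 0.7 M replicate 2 the 12-library count for this list became 1, and it was 2 without InRi 0.7 M replicate 3, control 0.7 M replicate 1 or control 0.15 M replicate 1. A summed level of 23 midgut markers, Amy-d and Amy-p among them, was 337 to 1072 CPM in libraries labelled InRi and 715 to 976 CPM in control on 0.7 M sucrose, and 869 to 1599.6 CPM in libraries labelled InRi and 2101 to 3568 CPM in control on 0.15 M sucrose. Of the 20 midgut markers tested, 2 were positive at an unadjusted p under 0.05 in 12 libraries and 4 in 11. At any p, 18 of the 20 had a positive interaction in either fit. Their median was 0.79 in 12 libraries and 0.95 in 11, against -0.03 and 0.02 for all genes tested. Positive values were thus not particular to the maltases and amylases, and the part of gut tissue in the samples was not tested.

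None of the 15 glycolytic genes and none of the 7 pentose phosphate genes tested had an unadjusted p under 0.05 in either fit. Their median interactions followed control 0.15 M replicate 2: 0.40 for glycolysis and 0.996 for the pentose phosphate pathway with it, and -0.26 and -0.17 without it. The tricarboxylic acid cycle list moved likewise, with a median of 0.56 in 12 libraries and 0.02 in 11, and with 1 of 23 genes positive at an unadjusted p under 0.05 in either fit. In the trehalose and glycogen list CG5171 was the 1 gene of 17 (5.88%) with an unadjusted p under 0.05 in 12 libraries. In 11 libraries 2 of 17 (11.8%) had one, both negative. Over all genes, in either direction, the shares were 5.26% and 9.46%, so the shares of this list and of the tricarboxylic acid cycle list were not far from them. Gdh, glutamate dehydrogenase, had interactions of 1.27 in all 12 libraries and 0.68 in 11, and CG1461, tyrosine aminotransferase, of -1.66 in all 12 libraries and -1.80 in 11. CG1461 was at 8.004, 3.87 and 8.07 CPM in libraries labelled InRi and at 11.2, 11.3 and 14.2 CPM in control on 0.7 M sucrose. CG1461 on 0.15 M sucrose was at 10.7, 12.1 and 8.53 CPM in libraries labelled InRi and at 4.91, 8.18 and 5.42 CPM in control. Sodh-1, a sorbitol dehydrogenase, had interactions of -1.62 in all 12 libraries and -2.07 in 11.

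In lipid metabolism 1 of 24 genes of fatty acid and triglyceride synthesis (4.17%) was positive at an unadjusted p under 0.05 in 12 libraries and 3 (12.5%) in 11, and 0 of 17 droplet and lipase genes in 12 and 3 (17.6%) in 11, all positive. Over all genes the positive shares were 2.84% and 5.67%. v(2)k05816, the fatty acid synthase gene FASN2 in a later annotation, was the 1 synthesis gene positive in 12 libraries, with interactions of 1.47 in all 12 libraries and 1.41 in 11. NLaz, a lipocalin secreted by the fat body, had interactions of -1.16 in all 12 libraries and -1.06 in 11. Fatty acid oxidation had 0 of 28 genes with an unadjusted p under 0.05 in 12 libraries and 1 positive and 2 negative in 11.

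Of 26 endoplasmic reticulum genes tested 2 (7.69%) were positive at an unadjusted p under 0.05 in 12 libraries and 4 (15.4%) in 11, and the same numbers held for 26 autophagy genes, against 2.84% and 5.67% of all genes. Cp1, a lysosomal cathepsin, was at 1254, 1335 and 1024 CPM in libraries labelled InRi and at 321, 585 and 387 CPM in control on 0.7 M sucrose. Cp1 on 0.15 M sucrose was at 610.0, 404 and 445 CPM in libraries labelled InRi and at 312, 505 and 315 CPM in control. Libraries labelled InRi on 0.7 M sucrose lay above the other 9. CG8678, the autophagy gene Atg18b, was at 92.1, 115 and 82.6 CPM in libraries labelled InRi and at 41.01, 48.96 and 49.01 CPM in control on 0.7 M sucrose. CG8678 on 0.15 M sucrose was at 57.2, 46.4 and 64.3 CPM in libraries labelled InRi and at 58.1, 35.7 and 53.4 CPM in control. They lay above the other 9 here as well. Fer2LCH, the light chain of secreted ferritin, was at 556, 638 and 442 CPM in libraries labelled InRi and at 133, 248 and 211 CPM in control on 0.7 M sucrose. Fer2LCH on 0.15 M sucrose was at 261, 183 and 252 CPM in libraries labelled InRi and at 175, 216 and 166 CPM in control. The same held for Fer2LCH. Interactions were 1.11 in all 12 libraries and 0.89 in 11 for Cp1, 0.89 in all 12 libraries and 1.11 in 11 for CG8678 and 1.15 in all 12 libraries and 1.07 in 11 for Fer2LCH. PEK, a kinase that senses stress in the endoplasmic reticulum, had interactions of 0.69 in all 12 libraries and 0.80 in 11, and Cnx99A, the chaperone calnexin, of 1.38 in all 12 libraries and 0.79 in 11. Without InRi 0.15 M replicate 2 the 12-library counts for both lists became 0 of 26. The endoplasmic reticulum count was also 0 without control 0.7 M replicate 3, and the autophagy count without control 0.7 M replicate 1.

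Of 84 cytosolic ribosomal protein genes 7 (8.33%) were positive at an unadjusted p under 0.05 in 12 libraries and 5 (5.95%) in 11. Over all genes the positive shares were 2.84% and 5.67%, so the share in 11 libraries was near that of all genes. The list medians were 0.17 and -0.061. RpS10b was at 739, 1003 and 742 CPM in libraries labelled InRi and at 377, 362 and 353 CPM in control on 0.7 M sucrose. RpS10b on 0.15 M sucrose was at 352, 422 and 562 CPM in libraries labelled InRi and at 571, 4372 and 348 CPM in control. Control 0.15 M replicate 2 lay far above every other library. RpL28 was at 488, 561 and 516 CPM in libraries labelled InRi and at 258, 296 and 225 CPM in control on 0.7 M sucrose. RpL28 on 0.15 M sucrose was at 295, 289 and 392 CPM in libraries labelled InRi and at 399, 253 and 301 CPM in control. Here that library was the lowest of its group. Interactions were 3.17 in all 12 libraries and 1.27 in 11 for RpS10b, 0.97 in all 12 libraries and 1.15 in 11 for RpL28, 1.69 in all 12 libraries and 0.87 in 11 for RpL4 and 2.49 in all 12 libraries and 0.55 in 11 for RpL22. Nnp-1 and RpI135, genes of ribosome assembly and of RNA polymerase I, had interactions of -0.83 in all 12 libraries and -0.84 in 11 and -1.21 in all 12 libraries and -1.28 in 11. They were the 2 of 32 ribosome biogenesis genes (6.25%) with an unadjusted p under 0.05, in either fit, against 5.26% and 9.46% of all genes. Leaving out single libraries gave 2 to 12 positive ribosomal protein genes, with 2 without control 0.7 M replicate 3 and 12 without control 0.15 M replicate 1.

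Of 23 cuticular protein genes tested in 12 libraries 4 (17.4%) were negative at an unadjusted p under 0.05, with a list median of -0.81, and of 25 in 11 libraries 10 (40%), with a median of -0.85. Over all genes the negative shares were 2.42% and 3.79%. Cuticular proteins bind chitin in the cuticle that the epidermis secretes, and of the 133 genes in the table most held too few counts. Cpr78E was at 31.3, 12.8 and 33.5 CPM in libraries labelled InRi and at 59.7, 85.3 and 56.6 CPM in control on 0.7 M sucrose. Cpr78E on 0.15 M sucrose was at 54.1, 75.01 and 75.4 CPM in libraries labelled InRi and at 45.3, 92.99 and 53.1 CPM in control. Libraries labelled InRi on 0.7 M sucrose lay below the other 9. Lcp1, Lcp2 and Lcp4, larval cuticle proteins picked after their values were seen, had interactions of -0.81, -0.94 and -1.09 in 12 libraries and -2.18, -2.41 and -2.78 in 11. Control 0.15 M replicate 2 held 746 CPM of Lcp1, against 90.8 and 160.4 CPM in the other control libraries on that diet. Cpr67B had interactions of -1.39 in all 12 libraries and -1.12 in 11 and Cpr60D of -1.73 in all 12 libraries and -1.74 in 11, while Cpr67Fb stayed under 5 CPM in every library. With all 12 libraries the list had 4 negative genes, and only 2 without InRi 0.7 M replicate 2, control 0.7 M replicate 1, InRi 0.15 M replicate 2 or control 0.15 M replicate 1. The summed level of 91 cuticle and epidermis markers, 23 of them at 0 in all libraries, was 3031 to 6208 CPM in libraries labelled InRi and 2072 to 2459 CPM in control on 0.7 M sucrose, and 2636 to 3371 CPM in libraries labelled InRi and 1744 to 4110.1 CPM in control on 0.15 M sucrose, and the part of epidermis in the list's values was not tested.

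Cytochrome P450 enzymes oxidize steroids and foreign compounds. Of 63 P450 genes 2 were positive and 1 negative at an unadjusted p under 0.05 in 12 libraries, and of 64 in 11 libraries 6 positive and 2 negative. In either direction this was 4.76% and 12.5%, against 5.26% and 9.46% of all genes. Cyp6a2 was at 3.56, 4.83 and 4.66 CPM in libraries labelled InRi and at 5.32, 8.42 and 1.09 CPM in control on 0.7 M sucrose. Cyp6a2 on 0.15 M sucrose was at 1.83, 0.661 and 1.07 CPM in libraries labelled InRi and at 5.998, 15.6 and 8.85 CPM in control. Its groups overlapped on 0.7 M, and libraries labelled InRi lay below control on 0.15 M sucrose. Cyp4p3 had interactions of 2.33 in all 12 libraries and 2.67 in 11 and Cyp28a5 of -0.86 in all 12 libraries and -0.72 in 11. GstD9, a glutathione S-transferase, was at 3.201, 2.9 and 1.86 CPM in libraries labelled InRi and at 23.9, 34.8 and 28.3 CPM in control on 0.7 M sucrose. GstD9 on 0.15 M sucrose was at 2.82, 5.29 and 4.42 CPM in libraries labelled InRi and at 8.18, 10.4 and 19.1 CPM in control. Libraries labelled InRi held less GstD9 than control on both diets, with a larger gap on 0.7 M sucrose, and interactions of -1.80 in all 12 libraries and -1.64 in 11. CG9363, of the zeta class of that family, had interactions of -1.43 in all 12 libraries and -1.15 in 11. Eip71CD, a methionine sulfoxide reductase induced by ecdysone, was the 1 negative gene of 22 in the ecdysone response list in 12 libraries, with interactions of -1.26 in all 12 libraries and -1.16 in 11. Keap1, the inhibitor of the antioxidant regulator cnc, had interactions of 1.06 in all 12 libraries and 0.84 in 11. At an unadjusted p under 0.05 the other lists of this kind held few genes in either direction. Of 27 glutathione S-transferase genes tested in 12 libraries there were 0 positive and 2 negative, and of 29 in 11 libraries there were 2 positive and 1 negative. Of 27 redox and detoxification regulators tested in 12 libraries there were 1 positive and 0 negative, and of 27 in 11 libraries there were 2 positive and 0 negative. Of 13 genes of ecdysone synthesis and breakdown tested in 12 libraries there were 1 positive and 0 negative, and of 13 in 11 libraries there were 1 positive and 1 negative. Of 22 genes of the early ecdysone response tested in 12 libraries there were 0 positive and 1 negative, and of 22 in 11 libraries there were 0 positive and 2 negative.

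In the insulin cascade trbl, which encodes an inhibitor of Akt, was the 1 gene of 13 (7.69%) with an unadjusted p under 0.05 in 12 libraries, and 2 of 13 (15.4%) had one in 11, all positive. Over all genes the positive shares were 2.84% and 5.67%. trbl was at 32.7, 42.3 and 31.4 CPM in libraries labelled InRi and at 16.4, 17.1 and 17.4 CPM in control on 0.7 M sucrose. trbl on 0.15 M sucrose was at 27.7, 24.1 and 23.9 CPM in libraries labelled InRi and at 21.3, 72.2 and 17.7 CPM in control. Its highest value lay in control 0.15 M replicate 2, and its interaction was 1.57 (SE 0.60) in 12 libraries and 0.74 (SE 0.27) in 11. Of 21 Tor pathway genes 1 was negative in 12 libraries and 1 positive in 11, and of 17 FOXO targets 0 and 2, both positive. Idgf4, a secreted growth factor, had interactions of 1.09 in all 12 libraries and 0.69 in 11, and Pvf2, a ligand of the PDGF and VEGF type, of 2.19 in all 12 libraries and 1.48 in 11, with their highest values again in control 0.15 M replicate 2. RnrS, the small subunit of ribonucleotide reductase, had interactions of 0.97 in all 12 libraries and 0.96 in 11, and RfC3, a subunit of the replication clamp loader, of -2.25 in all 12 libraries and -1.85 in 11. Of 10 lysozyme genes tested 0 were positive and 1 negative at an unadjusted p under 0.05 in 12 libraries, and 2 positive and 1 negative in 11. In either direction this was 10% and 30% of the list, against 5.26% and 9.46% of all genes. The lysozyme list's median interaction was 0.83 in 12 libraries and 0.83 in 11, and its negative gene was CG6426, with -1.26 in all 12 libraries and -1.19 in 11.

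**Figure D5:**
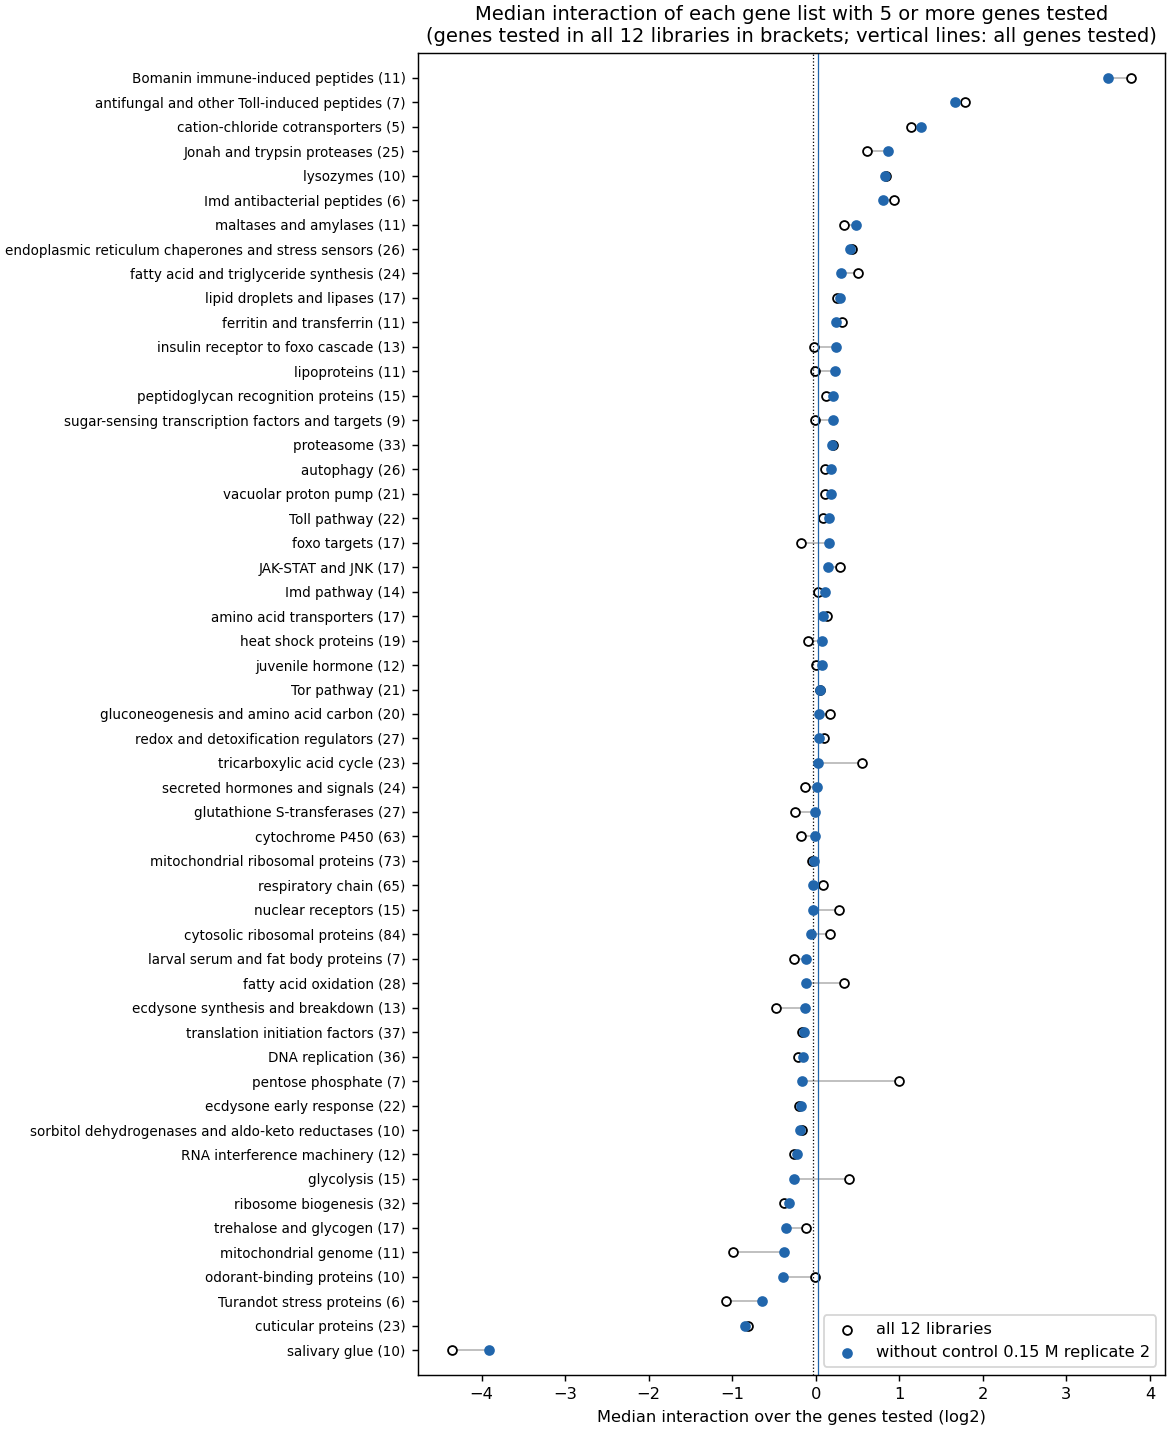
Median interaction (log2) of every gene list with 5 or more genes tested, in all 12 libraries (open) and without control 0.15 M replicate 2 (blue), with genes that had a group at 0 counts at their bound and the medians of all genes tested as vertical lines. Bomanins and salivary glue genes lie farthest out, at 3.49 and -3.91 in 11 libraries. Each moved toward the median of all genes when 1 library other than that one was left out.

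Markers of other cell types were compared with the interaction as well. Hemocyte markers, 13 genes all tested, had 2 positive genes at an unadjusted p under 0.05 in 12 libraries, Pxn and Cg25C, and 2 in 11, of which Pxn was 1. Of all genes 2.84% and 5.67% were positive, against 15.4% of these markers in either fit. Their summed level was 2538 to 3279 CPM in libraries labelled InRi and 1309 to 1789 CPM in control on 0.7 M sucrose, and 2443 to 3176 CPM in libraries labelled InRi and 1969 to 9216 CPM in control on 0.15 M sucrose. Pxn, the extracellular matrix enzyme peroxidasin, was at 686, 711 and 577 CPM in libraries labelled InRi and at 140.4, 272 and 276 CPM in control on 0.7 M sucrose. Pxn on 0.15 M sucrose was at 410.0, 301 and 403 CPM in libraries labelled InRi and at 195, 303 and 324 CPM in control. The fat body makes matrix proteins too, and the part of hemocytes in these values was not tested. Cg25C, a type IV collagen gene, had interactions of 2.20 in all 12 libraries and 0.58 in 11, with 5236 CPM in control 0.15 M replicate 2. Of 11 muscle, 6 nervous system, 5 tracheal and 7 imaginal disc markers tested, 0 had an unadjusted p under 0.05 in either fit. The 9 fat body markers were all tested and none was at 0, with a summed level of 216539 to 354086 CPM in libraries labelled InRi and 230770.0 to 313234 CPM in control on 0.7 M sucrose, and 161914 to 356982 CPM in libraries labelled InRi and 205028 to 262716 CPM in control on 0.15 M sucrose. Defining transcripts of the labelled tissue were thus present in every group.

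No gene had an unadjusted p under 0.05 in either fit among 12 RNA interference genes, 12 juvenile hormone genes, 11 mitochondrial genome transcripts, 17 or 18 JAK-STAT and JNK genes and the yolk protein gene that was tested. Of 73 mitochondrial ribosomal protein genes 0 had one in 12 libraries and 2 in 11, both positive, and of 65 respiratory chain genes 1 was positive and 1 negative in 12 libraries and 1 negative in 11. Of 33 proteasome genes 1 was positive in 12 libraries and 0 in 11. Among 19 heat shock genes 0 had one in 12 libraries and 3 in 11, all negative. Amino acid transporters had 0 of 17 in 12 libraries and 2 in 11, both positive. In 12 libraries the lists of 9 sugar-sensing, 25 Jonah and trypsin protease, 37 translation initiation and 21 vacuolar proton pump genes held 0 such genes. In 11 libraries they held 1 positive of 9, 2 positive of 26, 1 negative of 37 and 1 negative of 22. Of 14 Imd pathway genes 1 was positive in 12 libraries and 2 in 11. The 36 DNA replication genes had 1 positive and 1 negative in either fit. For comparison, 5.26% of all genes had an unadjusted p under 0.05 in 12 libraries and 9.46% in 11. At any p, Jonah and trypsin interactions were above 0 for 23 of 25 genes in 12 libraries (median 0.61) and 25 of 26 in 11 (median 0.87). Mitochondrial genome interactions were below 0 for 11 of 11 transcripts in 12 libraries (median -0.996) and 10 of 11 in 11 (median -0.38). Control 0.15 M replicate 2 had the lowest share of these transcripts, and the cause of either shift was not tested.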

How the data were processed

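Gene expression was measured by RNA-seq in 12 fat body libraries, 3 for each combination of genotype and sucrose. The deposited table holds whole-number counts of reads per gene as made by the authors, for 15222 genes, of which 2204 are at 0 in every library, and 0 columns were left without a sample. Reads came from total RNA depleted of ribosomal RNA, per the labels' protocols. Programs listed in the submitters' processing notes are Cufflinks 1.1.0, Bowtie 0.12.7 and TopHat 1.3.2, with the build dm3. The counting tool, its handling of strand and of reads shared by similar genes were not given in the sources used here, so overlapping, antisense and near-identical genes remain uncertain. Groups and replicate numbers were taken from the library titles.

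Low genes were removed by filterByExpr (minimum count 10, minimum total 15), and the rest were scaled by TMM and fitted with 1 mean per group by the quasi-likelihood method of edgeR 4.0.16 in R 4.3.3. The contrast was (InRi 0.7 M minus control 0.7 M) minus (InRi 0.15 M minus control 0.15 M), with Benjamini-Hochberg adjustment over all genes tested and a threshold of 0.05. It was fitted to 12 libraries and again to the 11 without control 0.15 M replicate 2. CPM were computed on the TMM library sizes of the 12-library fit. DESeq2 1.42.0, limma 3.58.1 (voom with sample quality weights), other scalings, filters, a threshold of 0.1, a replicate term and the omission of each library were alternatives. Figures were drawn with Python 3.11.15 and matplotlib 3.10.9. Any pair of libraries differed by a chi-square of at least 3.81 per gene, above sampling noise.

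Named genes were those called in either fit, then the 10 per direction with the smallest p in 12 libraries among genes of at least 5 CPM in 1 group and over 3 counts in every group. To these came up to 8 per direction with at most 3 counts in 1 group, given as levels only, then InR, svp and up to 4 genes per list with the smallest p. Members and lists were chosen with earlier results of these data known. Gene symbols are those of the table, matched to a later annotation for names only (11526 current, 3368 synonyms, 328 unmatched). The tests were run on simulated counts with 200 genes changed, 100 by 2-fold and 100 by 4-fold, all with a mean of at least 5 CPM. Each gene had the same spread in every simulated library. There edgeR called 2 unchanged genes with 12 libraries and 2 with 11, and DESeq2 called 9 and 9. DESeq2 recovered 6% of 2-fold and 53% of 4-fold interactions with 12 libraries, and 14% and 75% with 11.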

Additional observations from a re-analysis of the deposited data

Results flagged for a closer look

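Obp99a was the 1 gene for which edgeR's quasi-likelihood test called the difference between libraries labelled InRi and control as unequal on the 2 diets, while DESeq2 called 17 genes in 12 libraries and 43 in 11. Its interaction was -3.26 (log2, SE 0.40; edgeR quasi-likelihood test, adjusted p = 0.0117) without control 0.15 M replicate 2, with all 3 libraries labelled InRi on 0.7 M sucrose below all 3 controls. With that library included the value was -2.40 (adjusted p = 0.845, edgeR). No group held more than 3 libraries, so that outlying samples were not searched for by a formal rule.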

How the results depend on the processing

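With all 12 libraries the number of genes called by edgeR's quasi-likelihood test was 0, and it was also 0 at an adjusted p of 0.1, with RLE scaling, without scaling factors, with the robust option, without a filter, with at least 5 CPM in 3 libraries and with a replicate block. DESeq2 gave 17 and voom with sample quality weights 4, and leaving out 1 library gave 0 to 2. The 2 came without InRi 0.15 M replicate 1.

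Without control 0.15 M replicate 2 the count was 1, with RLE scaling, voom and the 5 CPM filter also 1. It was 11 at an adjusted p of 0.1, 2 without scaling factors, 43 with DESeq2, 6 with the robust option and 68 without a filter, and leaving out a further library gave 0 to 28. The count was 0 without InRi 0.7 M replicate 1, InRi 0.7 M replicate 3 or control 0.7 M replicate 1, 28 without InRi 0.15 M replicate 1 and 9 without control 0.15 M replicate 3. Leaving out a second control library on 0.15 M sucrose leaves 1, which is assumed to vary like the other groups, and without replicate 1 the 1 gene called was positive, so it was not Obp99a. The cause of these shifts was not tested.

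No pairing by replicate number was seen, though a check with 3 libraries per group could miss a weak one. The correlation of deviations from group means was -0.367 to 0.161 over 18 same-numbered pairs, 2 of them over 0.1. Of the 12 libraries 1 correlated best with its own number. With the replicate block the counts were 0 in 12 libraries and 3 in 11, 1 positive and 2 negative. Without scaling factors the median interaction of all genes shifted to -0.30 in 12 libraries and -0.22 in 11, from -0.03 and 0.02.

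Interactions that changed sign were these. InR went to -0.18 without scaling factors and to -0.023 with voom in 11 libraries, and omitting libraries gave -0.46 to 0.11 in 12 and -0.16 to 0.34 in 11. Omission gave -1.65 to 9.05 and -1.72 to 9.60 for IM1, -0.63 to 0.15 and -0.63 to 0.14 for Lsp1beta, -0.57 to 0.24 in 11 libraries for Lsp1gamma, -0.66 to 0.18 for CG31547 and -0.065 to 2.43 for Drs. The other named genes kept their sign under every alternative run. The lowest total, 872755 counts in control 0.7 M replicate 3, limits low genes most.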
